A study of Homo sapiens with 9 samples.

Results

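SR proteins and heterogeneous nuclear ribonucleoproteins (hnRNPs) are 2 families of RNA-binding proteins that set which exons of a pre-mRNA are kept. Their genes were taken by symbol: protein-coding genes of the SRSF series with TRA2A and TRA2B (14 SR genes), and protein-coding genes whose symbol starts with HNRNP (26 genes). The 40 genes stand among 60664 in the count tables. Enough reads for a test were present for 34 of them, all 14 SR genes and 20 hnRNP genes. The other 6, HNRNPA1L2, HNRNPCL1, HNRNPCL2, HNRNPCL3, HNRNPCL4 and the readthrough gene HNRNPUL2-BSCL2, had between 0 and 13 counts each over all libraries.

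RNA of HEK293 Flp-In T-REx cells was sequenced. This established human embryonic kidney line carries a tetracycline-controlled site for a transgene. There were 9 libraries, 3 of a TTC33 knock-down, 3 of a CCDC97 knock-down and 3 of control cells. The knock-down cells expressed a microRNA against TTC33 or against CCDC97 under tetracycline control, and the control cells expressed no microRNA. Tetracycline (100 ng/ml, 3 days) was added to all groups, the control included, and cells were seeded so as to be confluent when it ended. TTC33 names a protein network, described by the study as vertebrate-specific, that holds PHF5A, a protein also found in the SF3B complex of the spliceosome, and WDR61. The comparison made here is that of the mRNAs of splicing regulators between cells depleted of TTC33 or CCDC97 by a microRNA and control cells. No group expressed a microRNA against another target, so an effect of microRNA expression as such was not tested.

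SR proteins carry RNA recognition motifs and a tail rich in arginine and serine, and they bind exonic enhancers and recruit the splicing machinery. Many hnRNPs bind silencer sequences in exons and introns and oppose SR proteins at the same exons, so the balance of the families is often taken as a setting of exon inclusion. Both families limit their own amounts: several of their genes include a "poison" exon or a spliced 3′ end whose use sends the mRNA to nonsense-mediated decay. The values below are reads per gene over all of a gene's exons and do not separate such spliced forms.

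The stretches of genome around the start sites are shown because the count of 1 short sequence there was unequal between the families, a difference that was not tested. RefSeq (GRCh38.p14) gave promoter windows of 250 bases before to 50 bases after the start for 35 of the 40 genes, 30 of them among the genes tested. HNRNPA1, HNRNPA1P48, HNRNPCL3, SRSF2 and TRA2A were not matched. The CCAAT box, the core of the site bound by the factor NFY, was searched as CCAAT on both strands, which reads ATTGG on the other. It occurred in the windows of 16 of 18 hnRNP genes (88.9%) and of 2 of 12 SR genes (16.7%, SRSF3 and SRSF8), against 43.2% of the 11880 tested genes with a window. The count depends on the place. With the first letter before the start it was 15 hnRNP genes (83.3%), since the match in HNRNPH1 lay 43 bases after the start, against 41.7% of tested genes. With the first letter 100 to 50 bases before the start it was 7 of 18 hnRNP genes (38.9%) and the same 2 of 12 SR genes, against 21.2% of tested genes. A gene with several starts has several windows. Counted by window, 18 of 28 hnRNP windows (64.3%) and 3 of 15 SR windows (20.0%) held it, against 34.7% of the 17286 windows of tested genes and 34.6% of all 35116 windows. The sequences below run 5′ to 3′ on the gene's strand from 120 bases before to 20 bases after the start, with CCAAT or ATTGG in capitals. HNRNPA3 (chr2:177212674-177212813, plus strand), HNRNPA2B1 (chr7:26200727-26200866, minus strand) and HNRNPC (chr14:21269423-21269562, minus strand) show the box in abundant hnRNP genes, and SRSF3 (chr6:36594242-36594381, plus strand) shows an SR gene with it. SRSF1 (chr17:58007227-58007366, minus strand) and SRSF12 (chr6:89118052-89118191, minus strand) are SR genes without it.
HNRNPA3: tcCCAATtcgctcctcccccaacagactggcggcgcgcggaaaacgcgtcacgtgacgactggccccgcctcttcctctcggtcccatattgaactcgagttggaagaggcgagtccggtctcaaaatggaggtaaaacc
HNRNPA2B1: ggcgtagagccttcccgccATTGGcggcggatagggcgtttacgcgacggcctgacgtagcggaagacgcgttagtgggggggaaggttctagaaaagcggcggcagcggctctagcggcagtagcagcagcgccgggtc
HNRNPC: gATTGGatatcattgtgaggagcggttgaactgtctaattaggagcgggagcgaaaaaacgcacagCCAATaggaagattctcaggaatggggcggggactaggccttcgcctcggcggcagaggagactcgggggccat
SRSF3: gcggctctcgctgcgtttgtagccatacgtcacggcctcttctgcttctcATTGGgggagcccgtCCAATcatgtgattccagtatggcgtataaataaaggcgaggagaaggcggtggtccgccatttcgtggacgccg
SRSF1: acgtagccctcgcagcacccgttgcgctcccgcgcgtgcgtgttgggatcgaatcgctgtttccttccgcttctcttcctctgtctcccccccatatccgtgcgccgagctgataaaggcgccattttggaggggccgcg
SRSF12: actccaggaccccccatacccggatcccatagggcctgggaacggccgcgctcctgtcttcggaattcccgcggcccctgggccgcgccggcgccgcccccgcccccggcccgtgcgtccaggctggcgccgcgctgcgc

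HNRNPC and SRSF3 each show 2 boxes in these stretches, and HNRNPA3 and HNRNPA2B1 show 1. Seen from the start site, the first letter of the box lay at -118 in HNRNPA3, at -101 in HNRNPA2B1, at -119 and -54 in HNRNPC, and at -70 and -55 in SRSF3. Another 5 short sequences were searched on both strands. The SP1 letters GGGCGG were in 15 of 18 hnRNP genes (83.3%), 6 of 12 SR genes and 76.3% of tested genes. The YY1 letters GCCATNTT were in 4 hnRNP genes, 1 SR gene (SRSF1) and 11.6% of tested genes. The ETS letters CCGGAAG were in 3 hnRNP genes, 2 SR genes and 20.8%, and the NRF1 letters GCGCATGC in 1 hnRNP gene, 2 SR genes and 6.03%. The letters of the cyclic AMP response element, TGACGTCA, were in no window of either family and in 3.80% of tested genes. A stretch can count for more than 1 of these, for example where ATTGG runs into GGGCGG, and a match is a description of these letters only. The sequences were chosen with the expression values known.

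**Figure D1:**
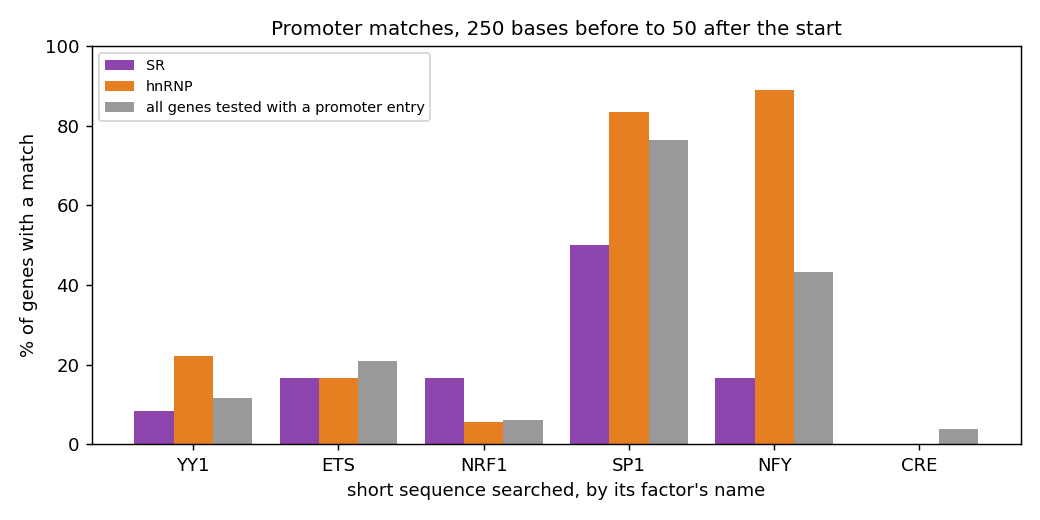
Share of genes (y axis, %) whose promoter window holds each of 6 short sequences (x axis, by the name of the factor) for the SR genes (12), the hnRNP genes (18) and all tested genes with a window (11880). The NFY bar is at 88.9% for hnRNP genes, 16.7% for SR genes and 43.2% for all tested genes.

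Libraries held between 21764203 and 36110891 counts in genes, and 18299 genes were tested. Each target mRNA was lower in its own knock-down: TTC33 mRNA was at 7.41 counts per 1e6 TMM-scaled counts (CPM), against 37.8 CPM in control cells, and CCDC97 mRNA at 15.6 CPM, against 60.1 CPM in control cells. CCDC97 mRNA was also called higher in the TTC33 knock-down (log2 fold change 0.43, edgeR adjusted p = 0.0371). It had 65.1, 81.3 and 95.8 CPM in TTC33 knock-down replicates 1, 2 and 3, against 59.5 to 60.6 CPM in the controls. Replicate 1 was thus near the controls. How this call depends on single libraries or on GC content is not given here. Of the genes listed as typical of the HEK293 line, VIM was at 586.9 to 818.9 and LIN28B at 143.5 to 214.3 CPM. NEFL, KRT8 and KRT18 were at 76.1 CPM or more in every library. PAX2 (2.64 to 6.24 CPM), NEFM (0.61 to 1.12 CPM) and SOX11 (0 to 0.19 CPM) were low. Of genes typical of other tissues, the blood gene HBB was at 0 and the fibroblast gene COL1A1 at 5.95 to 9.81 CPM. Whether replicates came from separate cultures is not given in the labels, and p-values therefore describe the spread among these libraries, possibly a technical one. By GC content, replicate 1 of each knock-down behaved unlike replicates 2 and 3. By the chi-square per degree of freedom between 2 libraries, this held for the TTC33 knock-down only. Pairs with replicate 1 gave 28.4 and 34.6 there, and replicates 2 and 3 gave 6.82. In the CCDC97 knock-down the pairs with replicate 1 gave 24.5 and 31.6, and replicates 2 and 3 gave 30.6. Control pairs gave 3.31 to 5.7. With all genes split into 5 classes by GC content, those of the lowest class had a median log2 difference to the control mean of 0.03, -0.32 and -0.36 in replicates 1, 2 and 3 of the TTC33 knock-down. The same class had -0.11, 0.14 and 0.14 in replicates 1, 2 and 3 of the CCDC97 knock-down. The members lay on the AT-rich side as groups: the median GC content was 40.6% over the SR genes and 42.6% over the hnRNP genes tested, against 48.2% over all genes, and 8 of 14 SR genes and 8 of 20 hnRNP genes lay in the lowest class. Single members were GC-rich, such as HNRNPUL1 at 56.3% and HNRNPAB at 54.2%. The part of GC content in the members' values was not tested. Values from which smooth trends with GC content and the length of all annotated exons were removed in each library, called GC-corrected, are given beside many results.

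In control cells hnRNP mRNAs were the more abundant family per length. Levels are CPM per kilobase of annotated exon, mean ± SD over 3 libraries. All annotated exons of a gene count in its length, so the order depends on the annotation. By CPM alone HNRNPU was the highest member at 1901 ± 45.6, but over 22512 exon bases it had rank 11. SRSF3 had more CPM than SRSF2, 516.7 against 392.4, over 7118 against 3017 exon bases. HNRNPA1, which binds splicing silencers and shuttles between nucleus and cytoplasm, was highest at 367 ± 7.4, followed by HNRNPAB at 216 ± 6.0 and by HNRNPA2B1, a relative of HNRNPA1, at 195 ± 3.8. SRSF2, an SR protein that resides in nuclear speckles, was the highest SR mRNA at 130 ± 1.2, and HNRNPF, which binds runs of G, came next at 122 ± 3.7. The gaps between these 5 neighbours exceeded their SDs. The second SR mRNA was SRSF3, the smallest classical SR protein, at 72.6 ± 2.4, within 1 SD of SRSF9 at 70.2 ± 0.56. Below SRSF3 and SRSF9 came SRSF7 at 60.4 ± 2.4 and SRSF1, the founding member of the family, at 56.1 ± 1.9.

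Neighbours in the middle of the order often did not differ beyond their spread: HNRNPC (105 ± 3.3) and HNRNPA3 (104 ± 2.9), HNRNPM (85.0 ± 2.4) and HNRNPU (84.4 ± 2.0), and TRA2A (25.4 ± 0.79) and TRA2B (24.9 ± 0.17) were such pairs. The lowest were HNRNPLL at 7.52 ± 0.12, HNRNPUL2 at 6.50 ± 0.19, SRSF12 at 4.2 ± 0.22 and HNRNPA1P48 at 4.10 ± 0.51. Counts of genes that share exon bases are uncertain: HNRNPUL2 shares 44.1% of its bases with HNRNPUL2-BSCL2 on the same strand, and SRSF9 and HNRNPU share 46.2% and 15.6% with GATC and COX20 on the other strand. SRSF1 shares 56.6% with AC015813.2 on the same strand, and SRSF2 shares 36.7% with MFSD11 on the other strand. HNRNPA1P48 is listed as protein-coding although its symbol is that of an HNRNPA1 pseudogene.

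**Figure D2:**
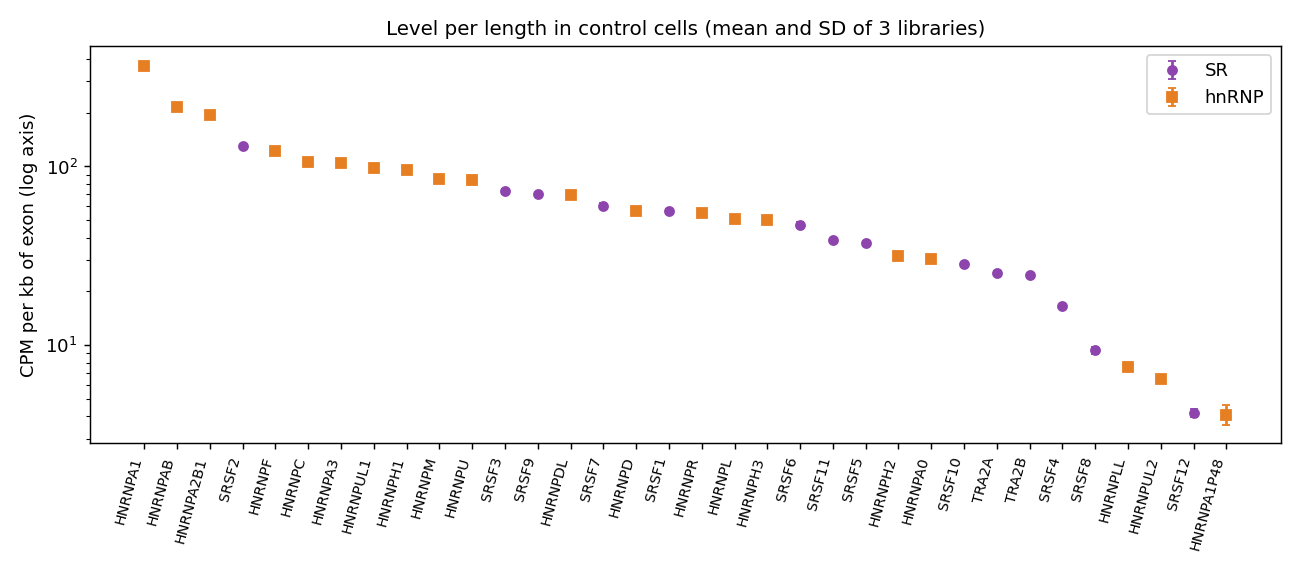
Level of each tested SR and hnRNP mRNA in control cells (y axis, CPM per kilobase of exon on a log axis, mean and SD of 3 libraries), ordered from high to low (x axis). The values run from 367 for HNRNPA1 to 4.10 for HNRNPA1P48, and SRSF2 is the single SR gene among the first 5.

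In the TTC33 knock-down most SR mRNAs had lower values than in control cells, and so had hnRNP mRNAs by smaller amounts. Log2 fold changes (edgeR, TTC33 knock-down over control) were negative for 12 of 14 SR genes with a median of -0.26, and for 17 of 20 hnRNP genes with a median of -0.09, while the median over all genes tested was 0.005. GC-corrected, 11 of 14 SR genes and 12 of 20 hnRNP genes were negative, with medians of -0.15 and -0.03. At an adjusted p below 0.05, SRSF12 and HNRNPA3 fell and no member rose, 1 gene of each family, against 11.9% of all genes called in either direction, 5.44% called lower and 6.5% called higher. At an unadjusted p below 0.05, 9 of 14 SR genes and 4 of 20 hnRNP genes passed, against 31.2% of all genes. All 3 knock-down libraries lay below all 3 controls for 8 SR genes and 10 hnRNP genes, against 17.8% of all genes, and above them for none of the members, against 19% of all genes. The difference between the families was not tested. In these bulk samples less RNA per cell and fewer cells of a kind cannot be told apart.

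HNRNPA3, a relative of HNRNPA1 and HNRNPA2B1, was the member with the clearest decrease. It had 431.1, 365.4 and 349.5 CPM in TTC33 knock-down replicates 1, 2 and 3, against 642.0, 635.4 and 609.4 CPM in control replicates 1, 2 and 3. Every knock-down library was below every control, and replicate 1 was the least reduced. The mean was 382 ± 43.3 CPM in the knock-down and 628.9 ± 17.3 CPM in control cells (SD, n = 3 each), 60.7% of the control level. The log2 fold change was -0.72 ± 0.10 (SE; adjusted p = 0.00116 by edgeR's quasi-likelihood test), and the gene passed in all 9 fits that left out a library. The GC-corrected value was -0.48 (adjusted p = 3.3e-05). HNRNPA3 (ENSG00000170144) lies on chromosome 2 at 177212563 to 177223958, plus strand (GRCh38). Its 16 annotated copies elsewhere in the genome held 429 counts over all libraries, against 149214 for the gene itself.

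SRSF12, an SR protein described as an antagonist of other SR proteins and of low abundance here, fell in the same comparison. It had 16.9, 11.3 and 13.5 CPM in TTC33 knock-down replicates 1, 2 and 3, against 20.3, 18.4 and 18.7 CPM in the controls. The groups did not overlap, although knock-down replicate 1 was close to the lowest control. The log2 fold change was -0.46 ± 0.13 (edgeR adjusted p = 0.0427), and -0.25 when GC-corrected (adjusted p = 0.0322). The call was lost without any of the controls, without replicate 2 or 3 of either knock-down, in the fit of the compared groups alone (adjusted p = 0.0656) and with the sum of both deposited tables (adjusted p = 0.0523), and the adjusted p reached 0.154 without control replicate 1.

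SRSF1 and SRSF11 had the largest negative SR values without passing the test. SRSF1 had 174.8, 73.7 and 65.8 CPM in TTC33 knock-down replicates 1, 2 and 3, against 189.5, 192.3 and 180.3 CPM in the controls. Replicates 2 and 3 were far below the controls and replicate 1 just below them, so the groups did not overlap but the spread within the knock-down was wide (104.7 ± 60.8 CPM, against 187.4 ± 6.3 CPM in control cells). The log2 fold change was -0.84 ± 0.30 (edgeR adjusted p = 0.0923). It was -1.43 without TTC33 knock-down replicate 1 (adjusted p = 2.29e-05) and -0.76 when GC-corrected (adjusted p = 0.0157). Of the exon bases of SRSF1, 56.6% are shared on the same strand with the annotated gene AC015813.2, so its count is uncertain.

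SRSF11, an SR protein that binds the splicing factor U2AF, had 311.3, 205.4 and 193.4 CPM in TTC33 knock-down replicates 1, 2 and 3, against 331.0, 330.4 and 328.5 CPM in the controls. The pattern was that of SRSF1, with replicates 2 and 3 low and replicate 1 near the controls. The log2 fold change was -0.48 ± 0.16 (edgeR adjusted p = 0.0798), and -0.24 when GC-corrected (adjusted p = 0.0067). Without TTC33 knock-down replicates 1, 2 and 3 in turn it was -0.73, -0.39 and -0.36 (adjusted p = 0.000313, 0.255 and 0.254). DESeq2 called SRSF11 (adjusted p = 0.0398), but edgeR with replicate number as a block did not (adjusted p = 0.156).

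**Figure D3:**
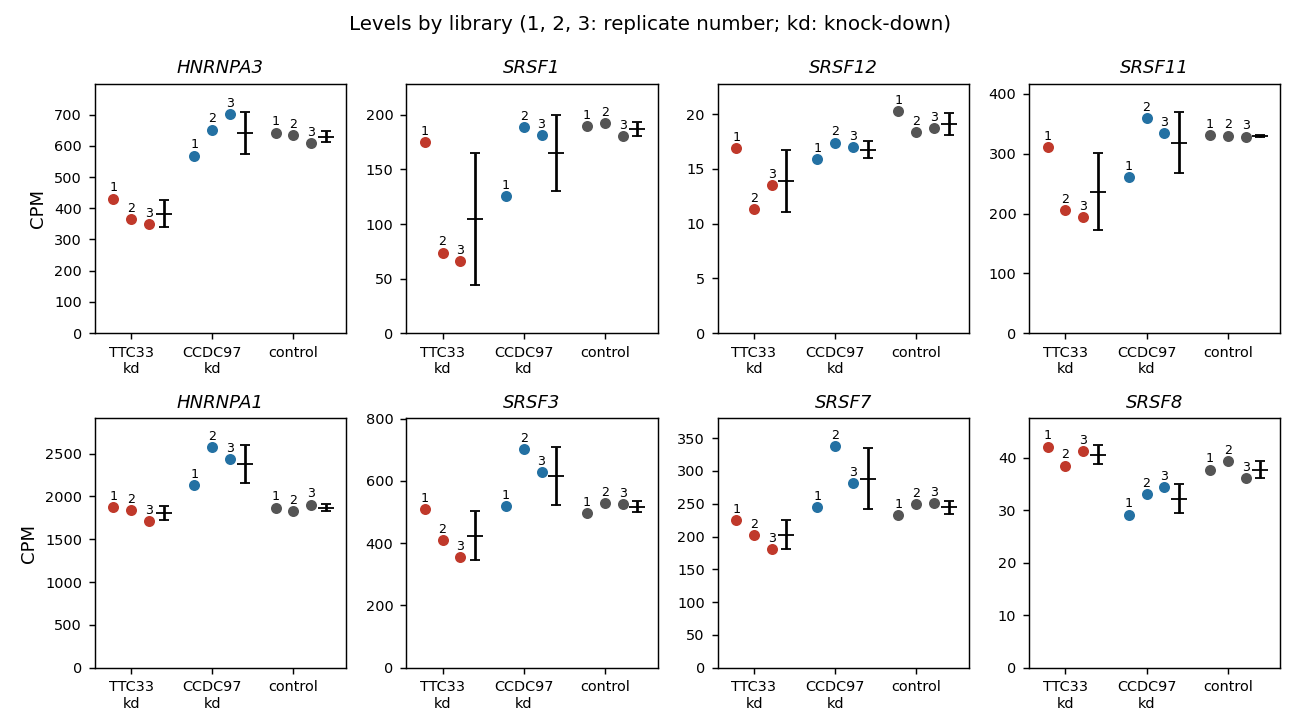
Level of 8 members in each library (y axis, CPM from 0), with replicate numbers beside the points and the mean and SD of 3 libraries as a bar, for the TTC33 knock-down, the CCDC97 knock-down and the control. HNRNPA3 is lower in all 3 TTC33 knock-down libraries, SRSF1 and SRSF11 mainly in replicates 2 and 3, and HNRNPA1 is higher in all 3 CCDC97 knock-down libraries.

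The remaining SR genes had values between -0.34 and 0.13, none of them past the test. The classical SR genes SRSF3, SRSF6 and SRSF7 had log2 fold changes of -0.28, -0.34 and -0.27 in the TTC33 knock-down, and the splicing repressor SRSF10 had -0.33 (edgeR adjusted p = 0.168, 0.113, 0.135 and 0.146). TRA2A and TRA2B, the relatives of the fly sex-determination factor Transformer-2, had -0.26 and -0.22 (adjusted p = 0.0852 and 0.144). SRSF2 had 355.2, 344.6 and 327.6 CPM in the knock-down, against 388.6, 395.8 and 392.7 CPM in the controls. All knock-down libraries of SRSF2 were lower, with a log2 fold change of -0.20 ± 0.06 (edgeR adjusted p = 0.059), but SRSF2 shares 36.7% of its exon bases with MFSD11 on the other strand. SRSF4 and SRSF8 had positive values, 0.13 and 0.11 (adjusted p = 0.281 and 0.41). SRSF5 and SRSF9 had -0.02 and -0.13 (edgeR adjusted p = 0.871 and 0.214), and 0.12 and -0.03 when GC-corrected, so the direction of SRSF5 turned. GC-corrected values were -0.14, -0.20, -0.16 and -0.21 for SRSF3, SRSF6, SRSF7 and SRSF10, -0.14 and -0.12 for TRA2A and TRA2B, -0.16 for SRSF2, and 0.25 and 0.17 for SRSF4 and SRSF8.

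Among the other hnRNPs of the A and B group, HNRNPA2B1 had 1562, 1605 and 1537 CPM in TTC33 knock-down replicates 1, 2 and 3, against 1777, 1847 and 1805 CPM in the controls. The groups did not overlap, and the log2 fold change was -0.21 ± 0.08 (edgeR adjusted p = 0.124). The GC-corrected value was -0.07, and the gene passed when the compared groups were fitted alone (adjusted p = 0.0225). HNRNPA1P48 had 7.81, 5.24 and 4.09 CPM in the knock-down and 8.26, 8.63 and 6.79 CPM in the controls, groups that overlapped (-0.46 ± 0.24, adjusted p = 0.213). HNRNPA1 itself had -0.05 (adjusted p = 0.692). The G-run binders HNRNPF, HNRNPH1, HNRNPH2 and HNRNPH3 had values between -0.15 and 0.01, none of them past the test. HNRNPU, which organises chromatin and nuclear RNA, had -0.06, and HNRNPC, which binds U-rich tracts, had -0.07. The direction of several of these turned with the GC correction, to 0.12 for HNRNPU, 0.10 for HNRNPC, 0.03 for HNRNPA1, 0.19 for HNRNPH1 and 0.05 for HNRNPH2, none of them past the test. The same turn was seen in HNRNPD (-0.12, GC-corrected 0.19), HNRNPR (-0.18 and 0.18) and HNRNPLL (-0.02 and 0.16, past the test only when corrected, adjusted p = 0.0385), and the reverse in HNRNPAB (0.07 and -0.02) and HNRNPUL1 (0.08 and -0.07).

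A single member changed in the CCDC97 knock-down: HNRNPA1 rose, and no SR gene passed the test. Log2 fold changes were negative for 9 of 14 SR genes with a median of -0.03, and positive for 16 of 20 hnRNP genes with a median of 0.07, against a median of 0.001 over all genes. The GC-corrected medians were -0.07 and 0.06. The 1 call among 34 members stands against 4.56% of all genes called in either direction, 2.07% called higher and 2.49% called lower. At an unadjusted p below 0.05, 2 of 14 SR genes and 4 of 20 hnRNP genes passed, against 20.6% of all genes. All 3 knock-down libraries lay above the controls for 1 hnRNP gene and no SR gene, against 14.9% of all genes, and below them for 3 SR genes and 1 hnRNP gene, against 15% of all genes.

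HNRNPA1 (ENSG00000135486; chromosome 12, 54280193 to 54287088, plus strand) had 2136, 2572 and 2433 CPM in CCDC97 knock-down replicates 1, 2 and 3, against 1870, 1831 and 1906 CPM in the controls. Every knock-down library was above every control, and replicate 1 was the lowest of the 3. The mean was 2380 ± 222 CPM in the knock-down and 1869 ± 37.6 CPM in control cells (SD, n = 3 each), 127.4% of the control level. The fitted log2 fold change of HNRNPA1 was 0.35 ± 0.08 (edgeR adjusted p = 0.0269) and 0.32 when GC-corrected (adjusted p = 0.00209). The call was lost without CCDC97 knock-down replicate 2 or 3 or without any of the controls, with adjusted p up to 0.134 and log2 fold changes of 0.28 to 0.42 over all 9 fits. HNRNPA1 has 75 annotated copies by symbol, which held 7964 counts over all libraries against 539585 for the gene. These copies include HNRNPA1P48, treated here as a separate hnRNP gene, with 2075 of the 7964 counts.

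SRSF3 and SRSF7, which also act as adaptors of mRNA export, had the largest positive SR values in the CCDC97 knock-down. SRSF3 had 518.0, 702.8 and 629.1 CPM in CCDC97 knock-down replicates 1, 2 and 3, against 496.9, 528.7 and 524.5 CPM in the controls. SRSF7 had 245.2, 337.8 and 281.0 CPM, against 233.3, 249.4 and 250.7 CPM in the controls. In both genes replicates 2 and 3 were above the controls and replicate 1 was among them, so the groups overlapped. The log2 fold changes were 0.26 ± 0.13 for SRSF3 and 0.24 ± 0.11 for SRSF7 (edgeR adjusted p = 0.304 and 0.265). GC-corrected, SRSF3 had 0.21 (adjusted p = 0.0493).

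SRSF8, a retrocopy relative of SRSF2 that is expressed in humans, had 29.1, 33.0 and 34.4 CPM in CCDC97 knock-down replicates 1, 2 and 3, against 37.7, 39.3 and 36.1 CPM in the controls. All knock-down libraries were lower, with a log2 fold change of -0.23 ± 0.08 (edgeR adjusted p = 0.153) and -0.26 when GC-corrected (adjusted p = 0.00754). SRSF12 and SRSF2 were the other SR genes with all 3 libraries below the controls, with log2 fold changes of -0.19 and -0.10 (adjusted p = 0.446 and 0.404). HNRNPH3 had 266.4, 352.4 and 334.7 CPM in the knock-down, against 263.5, 271.1 and 276.1 CPM in the controls. Replicate 1 overlapped the controls, and the log2 fold change of HNRNPH3 was 0.23 ± 0.10 (adjusted p = 0.20). Without CCDC97 knock-down replicates 1, 2 and 3 in turn it was 0.35, 0.15 and 0.19 (adjusted p = 0.0167, 0.564 and 0.443). HNRNPA1P48 had 7.22, 12.2 and 8.23 CPM in the knock-down, overlapping the controls (0.23 ± 0.23, adjusted p = 0.631). HNRNPA3, which fell in the TTC33 knock-down, had 568.9, 651.9 and 701.9 CPM here and a log2 fold change of 0.03 (adjusted p = 0.907), or -0.01 GC-corrected.

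**Figure D4:**
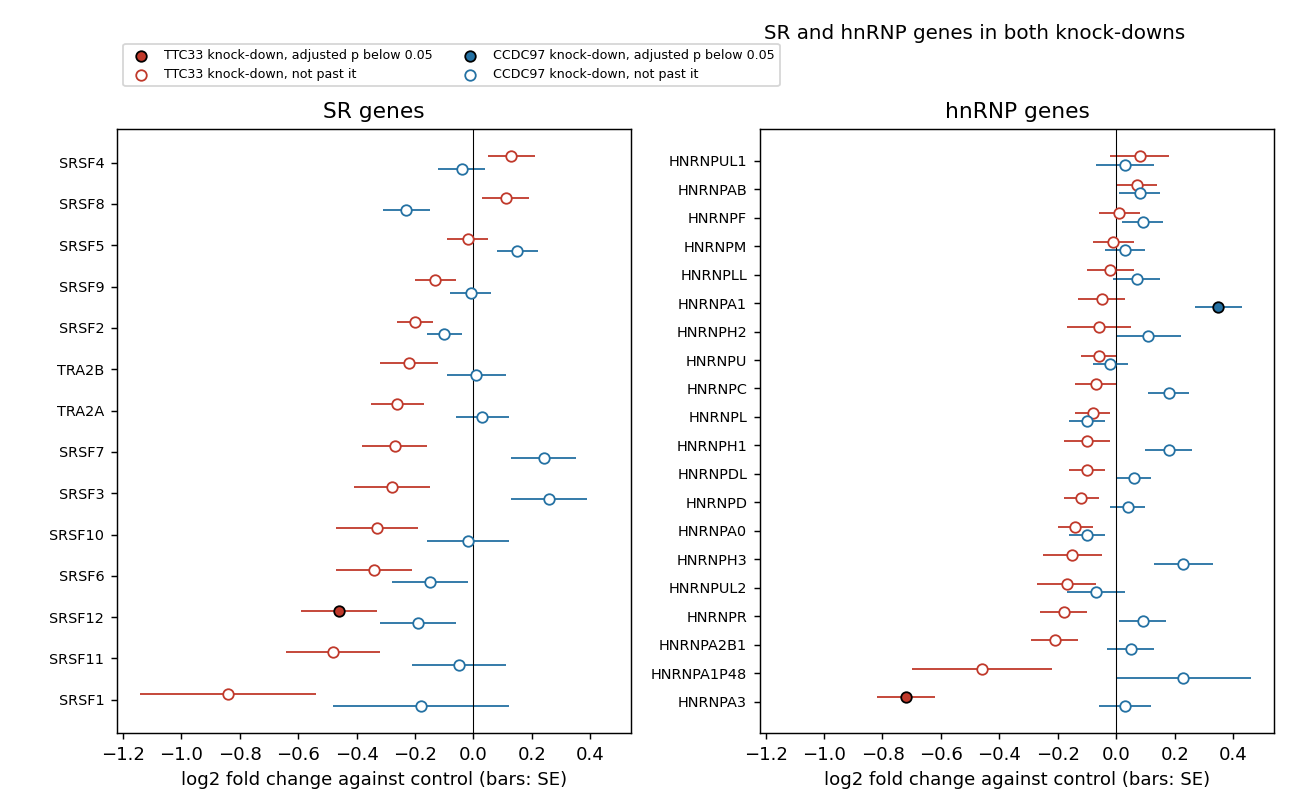
Log2 fold change against control with its SE (x axis) of each tested member (y axis), SR genes left and hnRNP genes right, in the TTC33 knock-down (red) and the CCDC97 knock-down (blue). Filled points passed an adjusted p of 0.05: SRSF12 and HNRNPA3 in the TTC33 knock-down, and HNRNPA1 in the CCDC97 knock-down.

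Set directly against each other, the knock-downs differed in 10 members in the fit of all 9 libraries. The comparisons with control share the same control libraries. The fold changes of this contrast rest on the knock-down libraries, but its p-values also use the spread among the controls. Fitted on the knock-down libraries alone, 3 members passed: SRSF7, HNRNPA1 and HNRNPA3 (edgeR adjusted p = 0.0473, 0.034 and 0.00707). In the TTC33 knock-down relative to the CCDC97 knock-down, 3 SR genes (SRSF3, SRSF7 and TRA2A) and 6 hnRNP genes (HNRNPA1, HNRNPA3, HNRNPC, HNRNPH1, HNRNPH3 and HNRNPR) were lower and 1 SR gene (SRSF8) was higher, against 21.5% of all genes called in either direction, 10.2% lower and 11.3% higher. The median log2 fold change was -0.25 over SR genes, -0.16 over hnRNP genes and 0.005 over all genes, and the GC-corrected medians of the families were -0.07 each. All 3 TTC33 knock-down libraries lay below all CCDC97 knock-down libraries for 3 SR and 8 hnRNP genes, against 14.5% of all genes, and above them for 1 SR gene, against 15.9%.

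HNRNPA3 and HNRNPA1 had the smallest p-values of this contrast among the members. With the library values given above, HNRNPA3 had a log2 fold change of -0.75 ± 0.10 (edgeR adjusted p = 0.000689) and HNRNPA1 of -0.40 ± 0.08 (adjusted p = 0.00548), and both passed in all 9 fits that left out a library and when GC-corrected (-0.46 and -0.29). SRSF7 had -0.50 ± 0.11 (adjusted p = 0.0118), lost without TTC33 knock-down replicate 3 (adjusted p = 0.0508). SRSF3 had -0.54 ± 0.13 (adjusted p = 0.0172), lost without replicate 2 or 3 of either knock-down. SRSF8 had 0.33 ± 0.08 (adjusted p = 0.0197), lost without CCDC97 knock-down replicate 2 or TTC33 knock-down replicate 3. In SRSF3, SRSF7, SRSF8, HNRNPA1 and HNRNPA3 the groups of libraries did not overlap.

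HNRNPC had 730.1, 728.2 and 744.2 CPM in TTC33 knock-down replicates 1, 2 and 3, against 796.3, 946.2 and 873.3 CPM in the CCDC97 knock-down. HNRNPH1 had 880.5, 841.6 and 797.8 CPM, against 898.8, 1134 and 1043 CPM in the CCDC97 knock-down. HNRNPR, a relative of SYNCRIP, had 454.9, 395.6 and 422.7 CPM, against 459.1, 528.4 and 539.0 CPM in the CCDC97 knock-down. In all 3 genes CCDC97 knock-down replicate 1 was close to the TTC33 knock-down libraries, and the log2 fold changes were -0.25, -0.29 and -0.26 (edgeR adjusted p = 0.0306, 0.033 and 0.036). GC-corrected they were -0.04, 0.03 and 0.10, none of them past the test, and the calls also ended without any of the controls and without replicate 2 or 3 of either knock-down. HNRNPH3 had 262.5, 236.3 and 233.0 CPM in the TTC33 knock-down, all below its CCDC97 knock-down values (-0.38 ± 0.10, adjusted p = 0.0202), and -0.28 when GC-corrected (adjusted p = 0.00304). The HNRNPH3 call was lost without replicate 2 or 3 of either knock-down. TRA2A had 83.7, 71.7 and 68.8 CPM in the TTC33 knock-down, against 82.5, 94.9 and 96.7 CPM in the CCDC97 knock-down, groups that overlapped through replicate 1 of each (-0.29 ± 0.09, adjusted p = 0.0441; -0.11 when GC-corrected, adjusted p = 0.087). The TRA2A call was lost without any of the controls and without replicate 2 or 3 of either knock-down.

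The families were compared library by library through the median log2 difference of their tested genes to the control mean. For SR genes the medians were -0.05, -0.32 and -0.40 in replicates 1, 2 and 3 of TTC33-depleted cells, -0.14, 0.08 and 0.00 in those of CCDC97-depleted cells, and between -0.01 and 0.01 in the controls. For hnRNP genes the medians were -0.05, -0.10 and -0.15 in TTC33-depleted cells, -0.04, 0.12 and 0.12 in CCDC97-depleted cells, and between -0.02 and 0.03 in the controls. The SR median lay below the hnRNP median in 5 of the 6 knock-down libraries and level with it in TTC33 knock-down replicate 1. The SR medians moved with those of all genes of the lowest GC class, given above, and their part in the medians was not tested beyond the correction. Of the 14 SR genes, 8 lay in that class and 13 in the lower 2 classes. All genes of the second class had medians of 0.02, -0.11 and -0.14 in replicates 1, 2 and 3 of TTC33-depleted cells. In those of CCDC97-depleted cells they had -0.04, 0.09 and 0.10. GC-corrected SR medians were -0.08, -0.13 and -0.17 in TTC33-depleted cells, with -0.10, -0.04 and -0.10 in CCDC97-depleted cells. Those of hnRNP genes were -0.09, -0.01 and 0.00 in TTC33-depleted cells, with 0.00, 0.06 and 0.06 in CCDC97-depleted cells. The corrected SR median was thus negative in all 6 knock-down libraries.

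**Figure D5:**
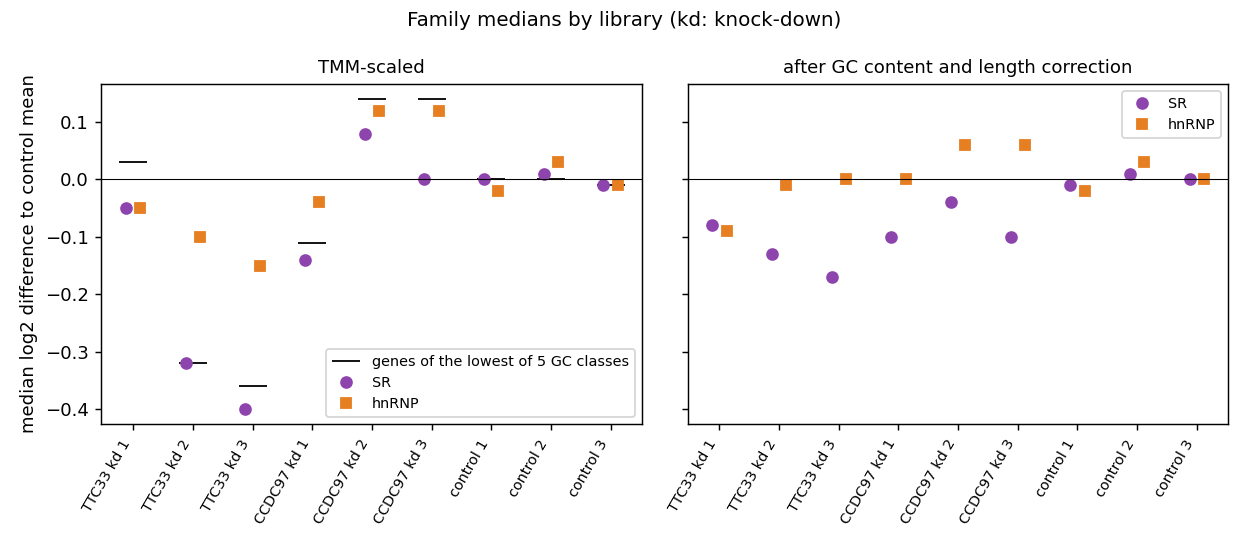
Median log2 difference to the control mean (y axis) of the SR genes (circles) and hnRNP genes (squares) in each library (x axis), as fitted (left) and GC-corrected (right). Bars on the left mark all genes of the lowest of 5 GC classes, and in TTC33 knock-down replicates 2 and 3 the SR medians of -0.32 and -0.40 lie beside bars at -0.32 and -0.36. All genes of the second GC class, which have no bars, had -0.11 and -0.14 in these libraries.

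The families were also compared by their summed levels. The SR genes together had 3104, 2576 and 2405 CPM in TTC33 knock-down replicates 1, 2 and 3, 2900, 3613 and 3397 CPM in the CCDC97 knock-down, and 3192, 3268 and 3230 CPM in the controls. The hnRNP genes together had 11422, 11306 and 11168 CPM in the TTC33 knock-down, 12039, 13547 and 13644 CPM in the CCDC97 knock-down, and 12041, 12261 and 12161 CPM in the controls. All TTC33 knock-down libraries were below all controls in both sums, while the CCDC97 knock-down libraries lay on both sides of them, replicate 1 below and replicates 2 and 3 above. The ratio of the hnRNP sum to the SR sum was 3.68, 4.39 and 4.64 in TTC33-depleted cells, 4.15, 3.75 and 4.02 in CCDC97-depleted cells, and between 3.75 and 3.77 in the controls. In the TTC33 knock-down replicate 1 was below the controls in this ratio and replicates 2 and 3 were above them.

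The correction changed which members passed the test, and in the comparisons with control also how many. In TTC33-depleted cells 7 SR genes were then lower and 1 (SRSF8) higher, and 1 hnRNP gene was lower (HNRNPA3) and 1 higher (HNRNPLL), against 26.8% of all genes called in either direction, 13.9% lower and 12.9% higher. The lower SR genes were SRSF1, SRSF2, SRSF6, SRSF10, SRSF11, SRSF12 and TRA2A, with corrected log2 fold changes from -0.76 for SRSF1 to -0.14 for TRA2A. For the CCDC97 knock-down 3 SR genes were lower (SRSF6, SRSF8 and SRSF12) and 1 higher (SRSF3), and 2 hnRNP genes were higher (HNRNPA1 and HNRNPH3), against 19.4% of all genes, 8.24% lower and 11.2% higher. In the direct contrast 2 SR genes were lower (SRSF3 and SRSF7) and 2 higher (SRSF4 and SRSF8), and 6 hnRNP genes were lower (HNRNPA1, HNRNPA1P48, HNRNPA3, HNRNPH3, HNRNPM and HNRNPUL1), against 27.9%, 16.1% lower and 11.9% higher. Of the 10 members called without the correction, SRSF3, SRSF7, SRSF8, HNRNPA1, HNRNPA3 and HNRNPH3 were among these.

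Genes that act on or beside the families were counted in 4 lists. Their counts stand against 11.9% of all genes called in TTC33-depleted cells and 4.56% in CCDC97-depleted cells, or 26.8% and 19.4% GC-corrected. Of 13 tested kinases, phosphatases and transport factors of SR proteins, 2 rose and 1 fell in the TTC33 knock-down (median -0.03). In the CCDC97 knock-down 1 fell (median 0.03). GC-corrected, 3 rose and 3 fell in the TTC33 knock-down (median 0.09), and 1 rose and 1 fell in the CCDC97 knock-down (median 0.03). SRPK1, the kinase that phosphorylates SR proteins in the cytoplasm, fell to 353.9, 285.0 and 284.4 CPM in TTC33 knock-down replicates 1, 2 and 3, against 390.0, 400.6 and 406.0 CPM in the controls (log2 fold change -0.37 ± 0.10, edgeR adjusted p = 0.0334). All its knock-down libraries were below the controls. The export receptor NXF1 (0.26, adjusted p = 0.0343) and the phosphatase subunit PPP1CA (0.33, adjusted p = 0.042) rose there, with GC-corrected values of 0.15 and 0.13, where PPP1CA no longer passed (adjusted p = 0.135). The kinase DYRK1A fell in the CCDC97 knock-down (-0.33 ± 0.08, adjusted p = 0.0382).

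Of 25 tested SR-related proteins with arginine and serine repeats, 2 rose in the TTC33 knock-down (RSRP1, 0.33, edgeR adjusted p = 0.0151, and SCAF1, 0.61, adjusted p = 0.0499, or 0.26 GC-corrected), with a list median of 0.02. In the CCDC97 knock-down 3 fell (THRAP3, -0.33, adjusted p = 0.0139, the nuclear speckle scaffold SON, -0.29, adjusted p = 0.0209, and LUC7L2, -0.30, adjusted p = 0.0423), with a median of 0.04. GC-corrected, 6 of this list rose and 1 fell in the TTC33 knock-down (median 0.07). In the CCDC97 knock-down 5 then rose and 4 fell (median 0.07). SON had 815.3, 828.9 and 880.1 CPM in CCDC97 knock-down replicates 1, 2 and 3, against 1004, 1057 and 1023 CPM in the controls. These groups did not overlap. Of 24 tested hnRNP-type proteins with other symbols, CIRBP, a cold-inducible RNA-binding protein, fell in each knock-down (medians of the list -0.02 in both). GC-corrected, 1 of the 24 rose and 5 fell in the TTC33 knock-down (median -0.02). In the CCDC97 knock-down 3 then rose and 1 fell (median 0.04). CIRBP had 93.4, 105.9 and 95.0 CPM in the TTC33 knock-down and 95.3, 91.4 and 92.9 CPM in the CCDC97 knock-down, against 118 to 124.1 CPM in the controls they share. These controls expressed no microRNA. The log2 fold changes of CIRBP were -0.30 ± 0.07 (adjusted p = 0.0212, or -0.46 GC-corrected) and -0.37 ± 0.07 (adjusted p = 0.0143).

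Of 25 tested splicing regulators of other families, 1 rose and 1 fell in the TTC33 knock-down (median -0.06). In the CCDC97 knock-down 1 rose and 2 fell (median -0.01). GC-corrected, 5 rose and 4 fell in the TTC33 knock-down (median 0.04), and 4 rose and 2 fell in the CCDC97 knock-down (median -0.02). NOVA2, a neuronal splicing factor, had 20.1, 19.8 and 21.1 CPM in TTC33 knock-down replicates 1, 2 and 3, against 12.9, 13.1 and 13.5 CPM in the controls. It was higher in all knock-down libraries (log2 fold change 0.63 ± 0.09, edgeR adjusted p = 0.00207) and passed in all 9 fits that left out a library. CELF2 fell in the TTC33 knock-down (-0.50 ± 0.10, adjusted p = 0.0118). RBM5, a splicing factor also studied as a tumour suppressor, rose in the CCDC97 knock-down (0.43 ± 0.08, adjusted p = 0.0102), and CELF1 (-0.32, adjusted p = 0.0233) and NOVA1 (-0.41, adjusted p = 0.0375) fell there.

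Except for NOVA2, each call of a named list gene without the correction was lost when some library was left out. In the TTC33 knock-down CELF2 was lost without control replicate 1 or 2, and the other 6 genes named were lost without any of the controls and without TTC33 knock-down replicate 3. All but CIRBP of these 6 were also lost without TTC33 knock-down replicate 2, and NXF1, PPP1CA and SCAF1 without CCDC97 knock-down replicate 2 or 3. In the CCDC97 knock-down all 8 genes named were lost without any of the controls and without CCDC97 knock-down replicate 2. LUC7L2, CIRBP, RBM5, CELF1 and NOVA1 were also lost there without CCDC97 knock-down replicate 3, LUC7L2 without TTC33 knock-down replicate 2 or 3, and NOVA1 without TTC33 knock-down replicate 2.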

How the data were processed

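Total RNA was sequenced in 9 libraries, 3 per group, grouped by the labels. The authors deposited raw whole-number read counts for each gene. The submitters' processing notes name Trimmomatic 0.39, HISAT2 (no version), HTSeq 2.0.1 and the build GRCh38. For the annotation release and strand setting nothing is given in the sources used here. Tables marked R12 were used, and smaller ones marked U (6.55% to 11.9% of the sum, not explained by the labels) only in an alternative. Rows naming no gene (33.4% to 57.9% of the counts) were left out. These include reads with several alignments, which touches genes with copies.

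The 18299 genes kept by filterByExpr went into edgeR 4.0.16 (R 4.3.3): TMM factors, glmQLFit over the 3 groups with 6 residual degrees of freedom, glmQLFTest and Benjamini-Hochberg adjustment over all genes, two-sided. CPM values are counts per 1e6 of the TMM-scaled library. GC content and exon lengths came from GENCODE release 29, with a value for 98.6% of genes tested. Coordinates are GRCh38. The correction subtracts trends fitted per library with mgcv 1.9.3. The fit was also run on simulated counts. These held no GC trends between libraries, so that run cannot speak to such trends.

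Alternatives were DESeq2 1.42.0, other scalings and filters, the compared groups alone, the replicate block, the sum of both tables, the GC correction and leaving out each library. Whether replicate numbers pair the samples is not given in the labels, and the main fit treats the samples as unpaired. The members and lists were chosen with earlier results of these data known. Given per library, not always for all groups, were members past the threshold and the 3 SR and 3 hnRNP genes with the largest log2 fold change in each comparison with control (mean of at least 5 CPM). Up to 3 genes of each list were named by adjusted p, with library values for SRPK1, SON, CIRBP and NOVA2 only. The 2 genes per family highest per length in controls were also named, HNRNPAB without library values. Other members named were chosen after their values were seen. A further gene of the HNRNP form is not analysed here.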

Additional observations from a re-analysis of the deposited data

How the results depend on the processing

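Several counts depended on the settings. Members past the test in the TTC33 knock-down numbered 2, and 10 with the correction, 12 with no filter, 4 with the DESeq2 test, 1 with the sum of both tables, and 1 to 16 when a library was left out (16 without TTC33 knock-down replicate 1). In the CCDC97 knock-down they numbered 1, and 6 with the correction and 0 to 4 without a library (4 without CCDC97 knock-down replicate 1, 0 without replicate 2 or 3 of that group or any of the controls). In the direct contrast they numbered 10, and 3 with the compared groups alone and 2 to 21 without a library (21 without TTC33 knock-down replicate 1, 19 without CCDC97 knock-down replicate 1, 6 without any of the controls). The hnRNP median of -0.09 in the TTC33 knock-down became -0.03 with the correction, and the SR median of -0.25 in the direct contrast became -0.07. Without a library the SR medians ranged from -0.35 to -0.19 (TTC33 knock-down), -0.08 to 0.04 (CCDC97 knock-down) and -0.38 to -0.18 (direct), and the hnRNP medians from -0.12 to -0.08, 0.02 to 0.11 and -0.21 to -0.13. HNRNPR and HNRNPH1 turned to 0.10 and 0.03 in the direct contrast with the correction, and HNRNPA1P48 to -0.05 in the CCDC97 knock-down without replicate 2 of that group (range -0.05 to 0.38 without a library). Calls over all genes numbered 2186, 835 and 3943. They were 4907 and 3557 with the correction in the TTC33 and CCDC97 knock-downs, 3821 and 1369 there with no filter, 1447 with DESeq2 in the CCDC97 knock-down, and 1339 and 1479 with the compared groups alone in the CCDC97 knock-down and the direct contrast. Without a library they ranged from 552 to 6512, 203 to 1981 and 1528 to 7767. The cause was not tested. Other scalings moved the median of all genes by at most 0.03. Depth limits SRSF12 and HNRNPA1P48 most, with 4530 and 2075 counts over all libraries.

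Replicate numbers are shared by the groups. Correlations of deviations from the group means between same-numbered samples were 0.07, 0.04 and 0.07 for the TTC33 knock-down and control. They were -0.03, 0.09 and 0.01 for the CCDC97 knock-down and control, and -0.50, -0.11 and -0.14 for the knock-downs. Samples with different numbers had -0.07 to 0.02, -0.08 to 0.06 and -0.27 to 0.37 in the same order. These values cannot decide whether the numbers pair the samples. For the TTC33 knock-down and control the same-numbered values all exceeded the others, but were small. With a replicate block, 1, 0 and 3 members passed in the TTC33 knock-down, the CCDC97 knock-down and the direct contrast, and 756, 240 and 1857 genes overall. SRSF12 (adjusted p = 0.0885) and HNRNPA1 (adjusted p = 0.084) were no longer called. With the replicate block and the GC correction together, 7, 6 and 9 members passed, the hnRNP median in the TTC33 knock-down was -0.03, the SR median in the direct contrast was -0.07, and HNRNPR and HNRNPH1 had 0.09 and 0.02 in the direct contrast.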
